A study of Mus musculus with 40 samples.

Results

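Mpo, Elane, Prtn3, Ctsg and Ms4a3 were taken from the deposited gene table by symbol, and all 5 were found among its 35976 gene symbols. They were named as genes of the promyelocyte stage, by a rule that uses no measured value, though earlier results of these data were known. Their levels were read in 32 libraries of mouse bone marrow cells. The sorted cells were long-term haematopoietic stem cells (LT-HSC; 4 wild type (WT) and 4 Dnmt3a knockout (KO) libraries), common myeloid and granulocyte-monocyte progenitors collected together (CMP/GMP; 4 and 4), and megakaryocyte-erythroid progenitors (MEP; 3 WT, numbered 1, 3 and 4, and 4 KO). The c-kit+ marrow cells comprised 2 WT, 2 Dnmt3a KO, 2 Sting KO and 3 Dnmt3a and Sting double knockout (DKO) libraries. The Dnmt3a knockout is named in the series design as a floxed Dnmt3a allele with Mx1-Cre, a Cre driven by an interferon-inducible promoter that acts in blood cells and in other tissues. Neither the labels nor the design text give the mice's age, strain or induction schedule, the Sting allele, or the sorting markers.

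Promyelocytes are the stage of neutrophil development at which primary (azurophil) granules are made. Mpo encodes myeloperoxidase, the haem enzyme that makes hypochlorous acid in the phagosome. Elane, Prtn3 and Ctsg encode neutrophil elastase, proteinase 3 and cathepsin G, serine proteases that are cleaved to their active form by the dipeptidyl peptidase cathepsin C and are stored in the same granules. Ms4a3 encodes a membrane protein with 4 membrane-spanning segments that is made in granulocyte-monocyte progenitors and their early progeny and is not itself granule cargo. These transcripts are made early, in progenitors, and are shut down before the neutrophil leaves the marrow.

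The upstream sequences of 4 members are shown because every one of them holds the same PU.1-type string. In RefSeq's GRCm38.p6, Prtn3 (chr10:79879667-79883174, plus strand) and Elane (chr10:79886312-79888216, plus strand) lie in tandem with 3137 bases between them. Mpo lies at chr11:87793784-87804412 (plus strand), Ctsg at chr14:56099885-56102574 (minus strand) and Ms4a3 at chr19:11629499-11640851 (minus strand). Each sequence below is the 250 bases before the annotated gene start, on the gene's own strand, 5′ to 3′. Capitals mark GAGGAA and, in Mpo, Elane and Prtn3, the string GGGCTGTGG or its reverse complement CCACAGCCC.
Mpo: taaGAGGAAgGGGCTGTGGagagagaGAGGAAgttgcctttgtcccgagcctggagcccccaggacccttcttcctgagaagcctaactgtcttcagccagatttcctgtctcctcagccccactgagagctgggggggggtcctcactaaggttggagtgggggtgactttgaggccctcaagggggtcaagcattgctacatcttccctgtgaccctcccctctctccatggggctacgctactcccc
Elane: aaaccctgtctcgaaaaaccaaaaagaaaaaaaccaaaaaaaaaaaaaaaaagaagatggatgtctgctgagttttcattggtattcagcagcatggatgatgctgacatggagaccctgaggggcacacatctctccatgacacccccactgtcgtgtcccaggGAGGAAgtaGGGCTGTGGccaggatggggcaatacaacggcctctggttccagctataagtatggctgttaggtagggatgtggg
Prtn3: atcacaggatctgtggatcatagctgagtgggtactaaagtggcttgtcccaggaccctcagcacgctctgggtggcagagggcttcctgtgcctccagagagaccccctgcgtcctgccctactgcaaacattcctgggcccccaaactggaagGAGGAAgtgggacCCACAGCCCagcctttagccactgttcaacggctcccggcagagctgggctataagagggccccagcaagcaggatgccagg
Ctsg: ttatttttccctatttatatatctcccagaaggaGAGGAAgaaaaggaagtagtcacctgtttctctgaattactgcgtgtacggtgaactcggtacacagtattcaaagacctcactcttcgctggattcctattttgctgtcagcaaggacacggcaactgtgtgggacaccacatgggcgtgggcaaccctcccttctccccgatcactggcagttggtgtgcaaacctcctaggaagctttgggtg
The windows are chr11:87793534-87793783 for Mpo, chr10:79886062-79886311 for Elane, chr10:79879417-79879666 for Prtn3 and chr14:56102575-56102824 for Ctsg.

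GAGGAA, a core string bound by PU.1 and other ETS factors, was searched on both strands from 250 bases before to 50 bases after each start. It was found for 5 of 5 members and in 28.3% of 32851 mouse promoters of that length. It began 247 and 224 bases before the Mpo start, 85 before Elane, 95 before Prtn3 and 216 before Ctsg, while the Ms4a3 match lay 36 bases past the start. The MYB string AACNG was found for 4 of 5 members and in 80.3% of all promoters. CCAAT was found for Elane and Ms4a3 (37.4% of promoters), the C/EBP string TTNNGNAA for Ms4a3 (40.7%), and the RUNX string TGTGGT for Ctsg (16.8%). No string contains another of the 5, and matches may overlap. The longest string that 3 or more upstream windows shared was the 9-base CCACAGCCC, picked after the sequences were seen and present in 0.904% of promoters. On the strand shown it began 240 bases before the Mpo start, 76 before Elane and 82 before Prtn3, and each copy followed a GAGGAA by 1, 3 and 7 bases. A match describes letters in a window and was not tied to binding or to any level below.

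Reads assigned to genes numbered 3.44 M in the shallowest library (MEP Dnmt3a KO 2) and 16.9 M to 47.7 M in the others. Levels are given as CPM, a gene's reads scaled to its library's total of gene reads. Of the 160 member values, 126 were at 10 CPM or more, where the 95% Wilson interval reached at most 9.84% from the value, and 3 were 0. Intervals cover counting error only. The stem cell and erythroid markers followed the labels. The 10 stem cell genes summed to 1039 to 1681 CPM in the LT-HSC libraries and 90.2 to 319 CPM elsewhere. The 10 erythroid genes summed to 7862 to 16472 CPM in MEP and 1139 to 3244 CPM elsewhere. The 8 megakaryocytic genes did not mark MEP. They summed to 139 to 257 CPM in WT MEP, 389 to 672 CPM in WT CMP/GMP and 1319 to 3266 CPM in WT LT-HSC. Kit was at 298 to 394 CPM in the c-kit+ libraries and 178 to 713 CPM in the sorted ones.

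Several libraries stood apart. LT-HSC WT 1 had 803 CPM over 9 monocytic genes, against 51.3 to 72.5 in the other 3 WT libraries, and LT-HSC Dnmt3a KO 2 had 371 CPM. The monocytic sum was also high in MEP Dnmt3a KO 2 (382 CPM) and in CMP/GMP WT 3, Dnmt3a KO 3 and Dnmt3a KO 4 (2310, 1403 and 1378 CPM). Dnmt3a itself was at 119 CPM in the library labelled LT-HSC Dnmt3a KO 3, inside the WT range of 77.2 to 230 CPM, and at 41.9 CPM in the library labelled MEP Dnmt3a KO 2, inside the WT range of 29.4 to 49.5 CPM. The other sorted KO libraries were below every WT library of their population. Reads outside a deleted part would still be counted, and which part was deleted is not stated by the sources used here. Within c-kit+ cells, Dnmt3a was 41.8 to 50.8 CPM in the Dnmt3a KO and DKO libraries and 77.4 to 96.8 CPM in the others, and Sting (Tmem173) was 9.61 to 11.7 CPM in the Sting KO and DKO libraries and 43.8 to 65.1 CPM in the others. By Xist and Y-linked reads, the groups mixed males and females, and in c-kit+ cells both Dnmt3a KO libraries and DKO 1 were female while the other 6 were male.

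By read count, Mpo was among the most abundant transcripts of the CMP/GMP and c-kit+ libraries, and all 5 members were high in both. In CMP/GMP, Mpo was 6013, 4345, 20863 and 6532 CPM in WT 1 to 4, and Dnmt3a KO 1 to 4 had 11163, 7035, 16101 and 14409 CPM. It was the single most abundant gene in CMP/GMP WT 3, in KO 1, 3 and 4 and in c-kit+ DKO 2, and its rank was 6 or better in every other CMP/GMP and c-kit+ library. WT 3 was the highest library and the genotypes overlapped. In c-kit+ cells Mpo was 8791 ± 90.2 CPM in WT (mean ± SD, n = 2).

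The 3 serine proteases differed in how far they ranged. Prtn3 in CMP/GMP was 1266, 885, 2162 and 941 CPM in the WT libraries, and the Dnmt3a KO libraries had 2073, 1027, 1521 and 1924 CPM. Ctsg ran from 688 to 2997 CPM over the same 8 libraries, highest in WT 3. Elane was 272, 217, 5408 and 189 CPM in WT, with 2053, 280, 2484 and 3286 CPM in KO. Elane was thus low in WT 1, 2 and 4 and KO 2 and several times higher in WT 3 and KO 1, 3 and 4, so that both genotypes held low and high libraries. As a share of the Mpo reads, Elane was 4.52%, 4.99%, 25.9% and 2.89% in WT 1 to 4, 18.4%, 3.98%, 15.4% and 22.8% in KO 1 to 4, and 17.3% to 21.0% in the 9 c-kit+ libraries. Cebpe, a granulocytic C/EBP factor, was 12.3, 6.40, 54.0 and 11.2 CPM in WT 1 to 4 and 41.2, 10.1, 42.1 and 53.9 CPM in KO 1 to 4. The sum over the 9 monocytic genes was 215, 224, 2310 and 263 CPM in WT 1 to 4 and 455, 426, 1403 and 1378 CPM in KO 1 to 4. Cebpe was highest in the libraries that were also high for Elane, the monocytic sum was high in 3 of them, and their part in the Elane levels was not tested. In bulk cells, fewer cells of a type and less RNA per cell cannot be told apart.

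Ms4a3 was 116 to 384 CPM in CMP/GMP and 558 to 766 CPM in c-kit+ cells. Compared per kilobase of exon, the median WT levels in CMP/GMP were 1832 CPM per kb for Mpo, 827 for Ctsg, 637 for Prtn3, 248 for Elane and 84.5 for Ms4a3. In c-kit+ WT cells, Elane stood above Ctsg and Prtn3: the mean levels were 2567 CPM per kb for Mpo, 1554 for Elane, 1133 for Ctsg, 728 for Prtn3 and 337 for Ms4a3. Together the 5 members took 0.628% to 3.18% of all gene reads in CMP/GMP and 1.32% to 1.96% in c-kit+ cells.

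**Figure D1:**
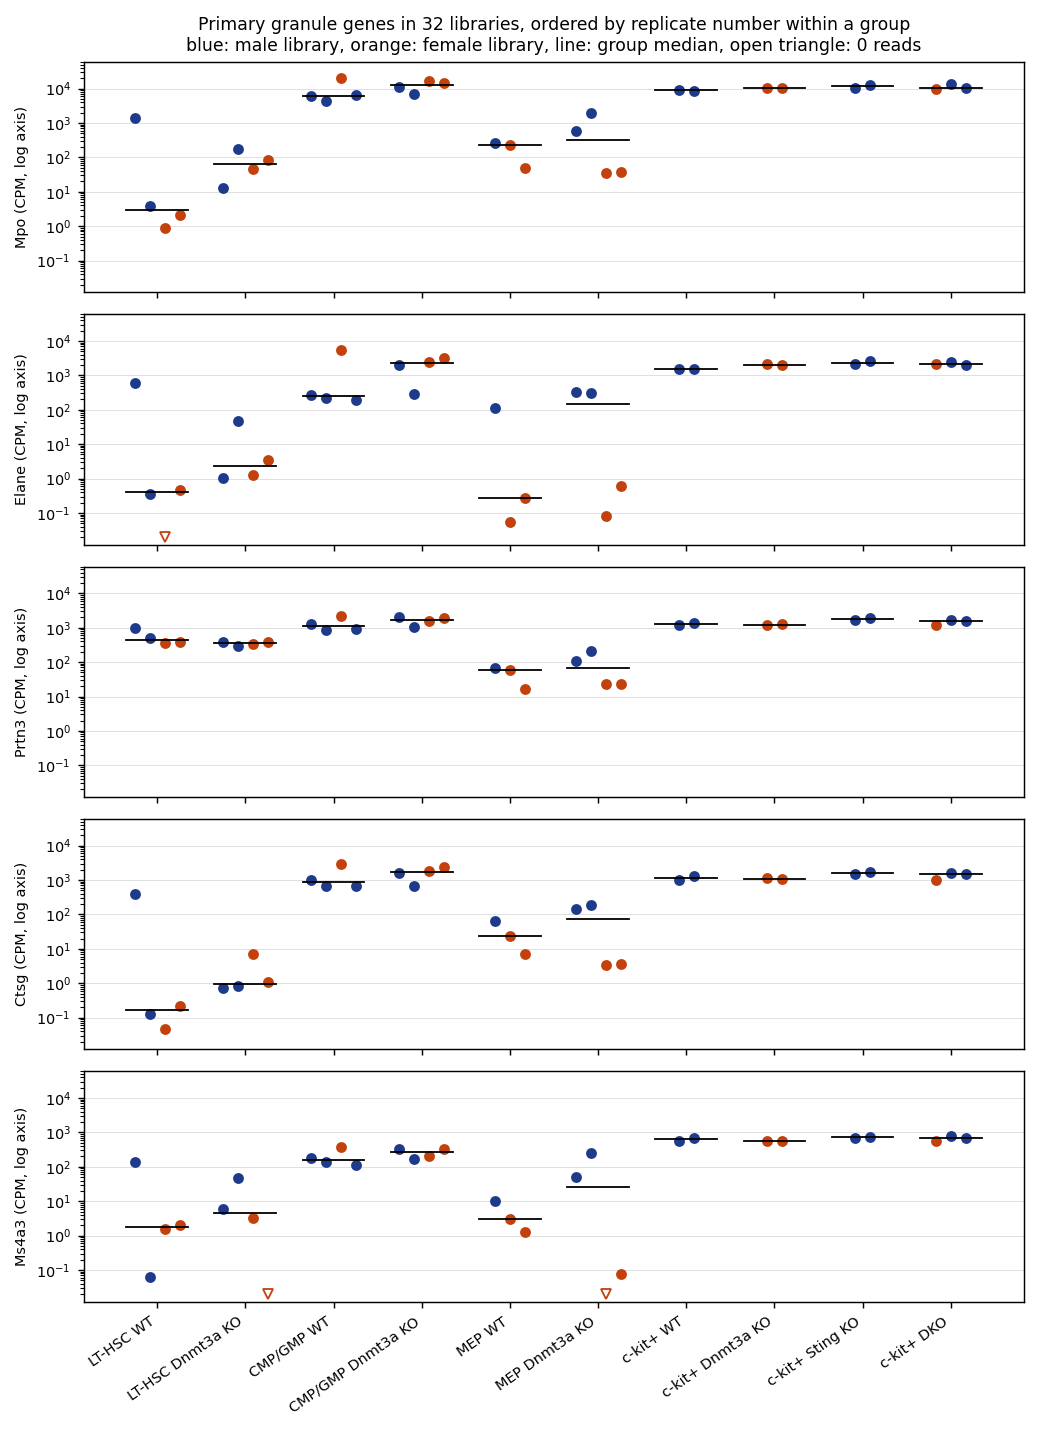
Level of each member in every library, as CPM on a log scale, with 1 panel per gene and the libraries grouped by population and genotype; each point is 1 library (blue male, orange female), lines are group medians and open triangles stand for 0 reads. LT-HSC WT 1 stands far above the other LT-HSC WT libraries for Mpo, Elane, Ctsg and Ms4a3, and Prtn3 alone stays between 298 and 994 CPM across all 8 LT-HSC libraries.

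In LT-HSC, Prtn3 was the one member read at a high level in every library. It was 994, 486, 351 and 397 CPM in WT 1 to 4, and Dnmt3a KO 1 to 4 had 383, 298, 344 and 377 CPM. Its rank among all genes was between 118 and 504 in these 8 libraries. Elane, its neighbour 3137 bases downstream, was 599.7 CPM in WT 1 and 0.349, 0 and 0.480 CPM in WT 2 to 4 (11, 0 and 22 reads). The 0 in WT 3 allows up to 0.0721 CPM, the level of 3 reads. Elane was 1.07, 46.5, 1.25 and 3.41 CPM in KO 1 to 4, above each of WT 2 to 4 and below WT 1.

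Mpo in LT-HSC was 1378 CPM in WT 1, 3.87, 0.913 and 2.14 CPM in WT 2 to 4, and 12.6, 175, 44.9 and 83.6 CPM in KO 1 to 4. Ctsg was 397 CPM in WT 1, 0.127, 0.0481 and 0.218 CPM in WT 2 to 4 (4, 2 and 10 reads), and 0.751, 0.827, 7.06 and 1.07 CPM in KO 1 to 4. Both genes thus had the same order: WT 1 highest, then the 4 KO libraries, then WT 2 to 4, and how many of all genes share it was not counted. Ms4a3 was 142, 0.0634, 1.59 and 2.09 CPM in WT, with 6.15, 48.6, 3.19 and 0 CPM in KO, with KO 4 below every WT library. Per kilobase, the WT median in LT-HSC was 255 CPM for Prtn3 and under 1 CPM for each other member (0.877 for Mpo, 0.421 for Elane, 0.167 for Ctsg and 0.977 for Ms4a3). LT-HSC WT 1, which carried the high members, also had Cebpa at 54.8, Csf1r at 29.2 and Irf8 at 104 CPM. Cebpa was 0 to 2.18 CPM and Csf1r 0 CPM in WT 2 to 4, and in KO 2 they were 28.7 and 11.2 CPM. The part of these other-lineage transcripts in the members' levels was not tested.

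In MEP, Mpo was 268, 236 and 48.0 CPM in WT 1, 3 and 4 and 590, 1884, 34.0 and 37.4 CPM in Dnmt3a KO 1 to 4. Elane was 110, 0.0555 and 0.276 CPM in WT, with 328, 299, 0.0822 and 0.617 CPM in KO. Elane thus split the MEP libraries into 3 with over 100 CPM (WT 1, KO 1 and KO 2) and 4 under 1 CPM, with both genotypes in each. The first 3 are all the male MEP libraries and the other 4 all the female ones, and the part of sex in these levels was not tested. How many of all genes split these libraries so was not counted. Prtn3 was 69.5, 58.9 and 16.8 CPM in WT, with 109, 206, 22.4 and 22.9 CPM in KO. Ctsg ran from 3.45 to 193 CPM and Ms4a3 from 0 to 259 CPM, both with KO 1 and KO 2 highest. The members took 0.00599% to 0.284% of gene reads in MEP and 0.0353% to 0.351% in LT-HSC.

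**Figure D2:**
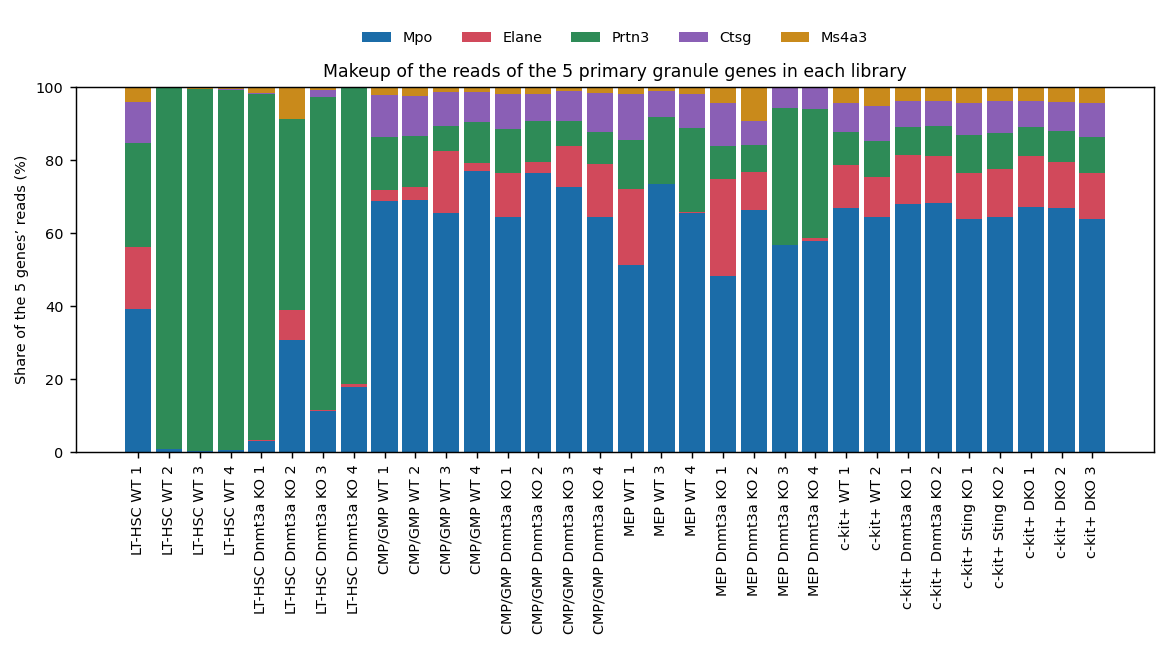
Share of the 5 members' summed reads that each member took in every library, in percent, as stacked bars reaching 100. In LT-HSC WT 2 to 4 nearly the whole bar is Prtn3, whereas Mpo takes the largest part in every CMP/GMP, MEP and c-kit+ library.

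The order of the levels across the 10 groups differed between the members. By group median, Mpo ran from 12786 CPM (CMP/GMP Dnmt3a KO) through 11581, 10560, 10376 and 8791 CPM (c-kit+ Sting KO, Dnmt3a KO, DKO and WT) and 6272 CPM (CMP/GMP WT) to 314 and 236 CPM (MEP KO and WT), 64.2 CPM (LT-HSC KO) and 3.0 CPM (LT-HSC WT). The ranges of the 2 CMP/GMP groups overlapped each other and those of every c-kit+ group, and the 2 MEP groups and the 2 LT-HSC groups also overlapped. Within c-kit+ cells, the WT libraries lay below those of all 3 knockout groups, and how many of all genes separate so was not counted. Prtn3 had another order at the lower end, with LT-HSC (medians 442 CPM in WT, with 360 CPM in KO) above MEP (58.9 and 66.1 CPM). For Elane, MEP KO (median 150 CPM) and MEP WT (0.276 CPM) lay on either side of LT-HSC KO (2.33 CPM) and WT (0.414 CPM). Its medians in CMP/GMP were 2268 CPM in KO and 244 CPM in WT. The Ms4a3 median in LT-HSC KO (4.67 CPM) was above that in MEP WT (3.03 CPM).

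The first set of tests compared WT populations, to see where along early differentiation the members are transcribed. In edgeR's quasi-likelihood fit with Benjamini-Hochberg adjustment over all genes, Prtn3 was lower in MEP than in CMP/GMP, with a log2 fold change of -4.73 (SE 0.60) and an adjusted p of 0.00114. It was also lower in MEP than in LT-HSC, at -3.33 (SE 0.56) and an adjusted p of 0.00243. Each of the 3 WT MEP libraries was below every WT CMP/GMP and LT-HSC library for Prtn3, and how many of all genes separate so was not counted. The other 4 members passed neither test. Of the 14663 genes tested, 3.47% were called in MEP against CMP/GMP, where 1 of 5 members was called, and 13.2% in MEP against LT-HSC, also with 1 of 5.

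Between WT CMP/GMP and WT LT-HSC, 0 of 5 members were called, against 8.74% of all genes. The fitted log2 fold changes were 4.90 for Mpo (SE 1.84, adjusted p = 0.111 by edgeR), 3.47 for Elane (SE 2.42), 1.40 for Prtn3 (SE 0.46, adjusted p = 0.0738), 3.90 for Ctsg (SE 1.94) and 2.63 for Ms4a3 (SE 1.44). Mpo and Prtn3 had an unadjusted p under 0.05 by edgeR (0.0193 and 0.00916), among 3845 of the 14663 genes tested. DESeq2 called these 2 members and limma-voom with quality weights called 4, with no share of all genes given here for either. Every WT CMP/GMP library was above every WT LT-HSC library for Mpo and Ctsg, and for the other 3 members LT-HSC WT 1 overlapped the CMP/GMP range. The share of all genes with such a separation was not counted.

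These results depended on the model and on LT-HSC WT 1. With this library kept, adding a term for the replicate number gave 5 of 5 members called in CMP/GMP against LT-HSC. The share of all genes called in that fit is not given here, so this count does not set the members apart. When each library was left out in turn, the fit without this one called 5 of 5 members higher in CMP/GMP than in LT-HSC, against 14.6% of 14510 genes. The log2 fold changes were then 12.21 for Mpo (SE 1.07, adjusted p = 6.41e-05), 12.62 for Elane (SE 2.88, adjusted p = 0.0133), 13.47 for Ctsg (SE 1.21, adjusted p = 7.72e-05), 7.53 for Ms4a3 (SE 1.04, adjusted p = 0.00105) and 1.87 for Prtn3 (SE 0.44, adjusted p = 0.016). These sizes rest on LT-HSC levels of 0 to 3.87 CPM for the first 4 genes and depend on the prior count. The difference of Prtn3 was thus far smaller than that of the other members, and it was at 351 to 486 CPM in these LT-HSC libraries; the gap between members was not tested.

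Without LT-HSC WT 1, MEP against CMP/GMP gave 4 of 5 members called lower (7.55% of genes), in a fit in which the WT libraries of all 3 populations share 1 estimate of the spread. Mpo was lower by a log2 fold change of -5.65 (SE 0.81, adjusted p = 0.00119), Ctsg by -5.38 (SE 0.82) and Ms4a3 by -5.40 (SE 0.93), and Elane, at -5.36 (SE 2.06, adjusted p = 0.144), was not called. In MEP against LT-HSC, 3 of 5 members were then called (19.1% of genes). Mpo and Ctsg were higher in MEP, with log2 fold changes of 6.56 (SE 0.87, adjusted p = 0.000481) and 8.09 (SE 1.05, adjusted p = 0.000423), while Prtn3 remained lower, at -2.86 (SE 0.48, adjusted p = 0.00204). With LT-HSC WT 1 in the fit, the Mpo and Ctsg estimates had the opposite sign, at -0.75 (SE 1.72) and -1.49 (SE 1.95).

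**Figure D3:**
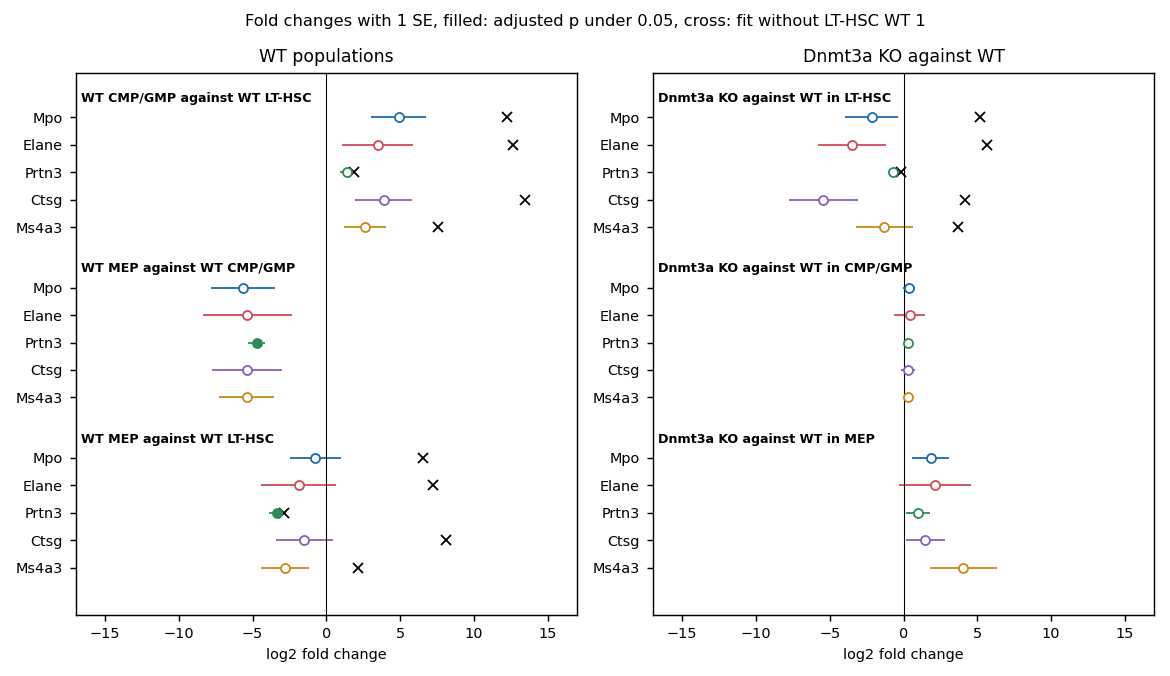
Log2 fold change of each member between WT populations (left) and between Dnmt3a KO and WT within each population (right), as points with bars of 1 SE; filled points have an adjusted p under 0.05, and crosses give the fit without LT-HSC WT 1 for comparisons with LT-HSC. Crosses of Mpo, Elane, Ctsg and Ms4a3 lie well to the right of their points, and on the other side of 0 for MEP against LT-HSC and for KO against WT in LT-HSC.

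The second set of tests asked whether Dnmt3a loss changed the members in each sorted population. In CMP/GMP all 5 estimates were positive and none was called: the log2 fold changes were 0.37 for Mpo (SE 0.43), 0.41 for Elane (SE 1.03), 0.33 for Prtn3 (SE 0.30), 0.30 for Ctsg (SE 0.48) and 0.33 for Ms4a3 (SE 0.37), with adjusted p of 0.817 or more by edgeR. No gene passed there, 0% of 13205 tested, although 1196 had an unadjusted p under 0.05; 0 of the 5 members did. DESeq2 called 158 genes and limma-voom 475, with 0 members among them. By sex, female WT 3 exceeded the female KO libraries for Elane (5408 against 2484 and 3286 CPM), whereas the 3 male WT libraries (189 to 272 CPM) lay below the 2 male KO libraries (280 and 2053 CPM). The share of all genes lying so was not counted.

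In MEP all 5 estimates were also positive, from 0.95 for Prtn3 (SE 0.81) to 4.06 for Ms4a3 (SE 2.27), with adjusted p of 0.462 or more. Again 0% of 12323 genes were called by edgeR, and 1607 had an unadjusted p under 0.05, none of them a member. Within each sex the direction differed: the female KO 3 and KO 4 lay below both female WT libraries for Mpo (34.0 and 37.4 against 236 and 48.0 CPM), Ctsg and Ms4a3, and the male KO libraries lay above the male WT 1 for all 5 members. How many of all genes lie so within each sex was not counted. DESeq2 called 561 genes and no member. Limma-voom with quality weights reversed the sign of all 5 members, with Mpo at -1.51 (adjusted p = 0.0193), Ctsg at -2.07 (adjusted p = 0.0161) and Ms4a3 at -5.74 (adjusted p = 0.00134) called lower. It called 7800 genes, where edgeR tested 12323, so a call was common there and does not set the members apart. The female KO 3 and KO 4 were also closer to each other (Pearson r of log2 levels 0.989) than other KO pairs (0.489 to 0.592). Without KO 2, in which Dnmt3a was within the WT range, the Mpo estimate was 0.30 (SE 1.13) in place of 1.83 (SE 1.24), and that of Ms4a3 was 1.88 (SE 2.25). MEP KO 2 also carried the highest monocytic sum of the MEP libraries (382 CPM, against 1.66 to 7.47 CPM in WT), and its part in the members' levels was not tested.

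In LT-HSC all 5 estimates were negative with LT-HSC WT 1 in the fit, from -0.68 for Prtn3 (SE 0.36) to -5.45 for Ctsg (SE 2.33), and every adjusted p was 1. EdgeR called 0% of 12800 genes, and 151 genes, Ctsg among them, had an unadjusted p under 0.05. DESeq2 called 7 genes, limma-voom 0 and neither a member. Without LT-HSC WT 1, 0% of 13390 genes were called, and 4 of the 5 estimates changed sign. Mpo was then higher in KO by 5.17 (SE 0.99, unadjusted p = 0.000327, adjusted p = 1), Elane by 5.68 (SE 2.19), Ctsg by 4.18 (SE 2.08) and Ms4a3 by 3.66 (SE 2.13). Mpo was higher in 4 of 4 KO libraries than in WT 2 to 4, and this stayed short of the threshold after adjustment. The separation holds only with LT-HSC WT 1 left out, since that library, at 1378 CPM, was above all 4 KO libraries. The 4 include the LT-HSC library labelled KO in which Dnmt3a was within the WT range. How many of all genes separate so was not counted. In the same fit without LT-HSC WT 1, Prtn3 was -0.20 (SE 0.24). With LT-HSC Dnmt3a KO 2 also left out, an alternative chosen after seeing the data, the Mpo estimate was 4.33 (SE 0.87, adjusted p = 1).

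Whether the Dnmt3a effect differed between LT-HSC, CMP/GMP and MEP was tested in a joint fit. The members' adjusted p ran from 0.377 (Ctsg) to 0.63 (Elane), and 0 of 5 were called by edgeR, against 0.0186% of 16136 genes. Ctsg had an unadjusted p under 0.05 by edgeR (0.0215), among 1929 genes that did. DESeq2 called 131 genes and no member. Limma-voom called 7215 genes, Mpo (adjusted p = 0.00532) and Ms4a3 (adjusted p = 0.00321) among them. With edgeR testing 16136 genes, a limma-voom call was common there and does not set these members apart. The opposite signs in LT-HSC and in the progenitors were therefore not shown to differ in the edgeR fit.

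The c-kit+ libraries varied least and carried the comparison of Dnmt3a and Sting loss. For Elane, the WT libraries had 1552 and 1507 CPM and the Dnmt3a KO libraries 2065 and 1992 CPM. The Sting KO libraries had 2114 and 2563 CPM and the DKO libraries 2084, 2508 and 2043 CPM. All 7 knockout libraries were thus above both WT libraries, a separation whose share among all genes was not counted. Mpo had the same pattern, from 8855 and 8727 CPM in WT to 10612 and 10509 CPM with Dnmt3a lost, 10598 and 12565 CPM with Sting lost, and 9926, 13126 and 10376 CPM with both lost. Prtn3 was 1260 ± 94.7 CPM in WT, 1233 ± 27.5 in Dnmt3a KO, 1797 ± 141 in Sting KO (n = 2 each) and 1468 ± 257 in DKO (n = 3). Prtn3 was above both WT libraries in the 2 Sting KO libraries, a separation also not counted over all genes, and overlapped WT in the other 2 groups. Ctsg followed Prtn3 (1170 ± 192, 1100 ± 23.2, 1588 ± 160 and 1377 ± 304 CPM), and Ms4a3 was 635 ± 79.7, 567 ± 12.7, 720 ± 33.0 and 672 ± 101 CPM in the same order.

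No member passed the edgeR test in any c-kit+ comparison. Elane came nearest: its log2 fold change against WT was 0.41 in Dnmt3a KO (SE 0.13, adjusted p = 0.192), 0.65 in Sting KO (SE 0.13, adjusted p = 0.0684) and 0.58 in DKO (SE 0.12, adjusted p = 0.0589). Those of Mpo were 0.26 (SE 0.15), 0.44 (SE 0.15) and 0.39 (SE 0.13). The 3 comparisons share the same 2 WT libraries. Of 16026 genes, 0.568% were called in Dnmt3a KO, 0.774% in Sting KO and 1.26% in DKO, against 0 of 5 members in each. Members with an unadjusted p under 0.05 were 1 in Dnmt3a KO (Elane), 4 in Sting KO (all but Ms4a3) and 2 in DKO (Mpo and Elane). Of the 16026 genes, 2611, 1845 and 2676 had such a p in the same comparisons. DESeq2 called Elane and Prtn3 in Sting KO and Elane in DKO, and limma-voom called Elane in all 3, with no share of all genes given here. Without DKO 3, edgeR called Elane in Sting KO (adjusted p = 0.0499) and in DKO (log2 fold change 0.66, adjusted p = 0.0217), again with no share of all genes given.

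Between DKO and either single knockout no member was called in the main edgeR fit, and Sting KO was not tested against Dnmt3a KO. With so few libraries per group, the lack of a call does not show equal levels. DKO against Dnmt3a KO gave log2 fold changes from 0.13 (Mpo, SE 0.13) to 0.37 (Ctsg, SE 0.18), with 0 of 5 called against 0.156% of genes. DKO against Sting KO gave -0.29 for Prtn3 (SE 0.14) and -0.05 to -0.20 for the others; edgeR called 0% of genes, 1854 genes and 0 members had an unadjusted p under 0.05, DESeq2 called 126 genes with no member and limma-voom none. For the interaction of the 2 losses, 0.15% of genes were called and 0 members. Its edgeR estimate was -0.48 for Elane (SE 0.18, unadjusted p = 0.0237, adjusted p = 0.577) and -0.31 for Mpo (SE 0.20). By these estimates the DKO lay below the sum of the single effects by those amounts. In the same test 1211 genes had an unadjusted p under 0.05. Since both Dnmt3a KO libraries were female and both WT libraries male, sex and genotype cannot be told apart in Dnmt3a KO against WT. The interaction and DKO against Dnmt3a KO use the same all-female group, so sex is not balanced in them either. Among the 6 male libraries alone, those of Sting KO (2114 and 2563 CPM) and DKO (2508 and 2043 CPM) were above those of WT (1552 and 1507 CPM) for Elane. The share of all genes that separate so was not counted.

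**Figure D4:**
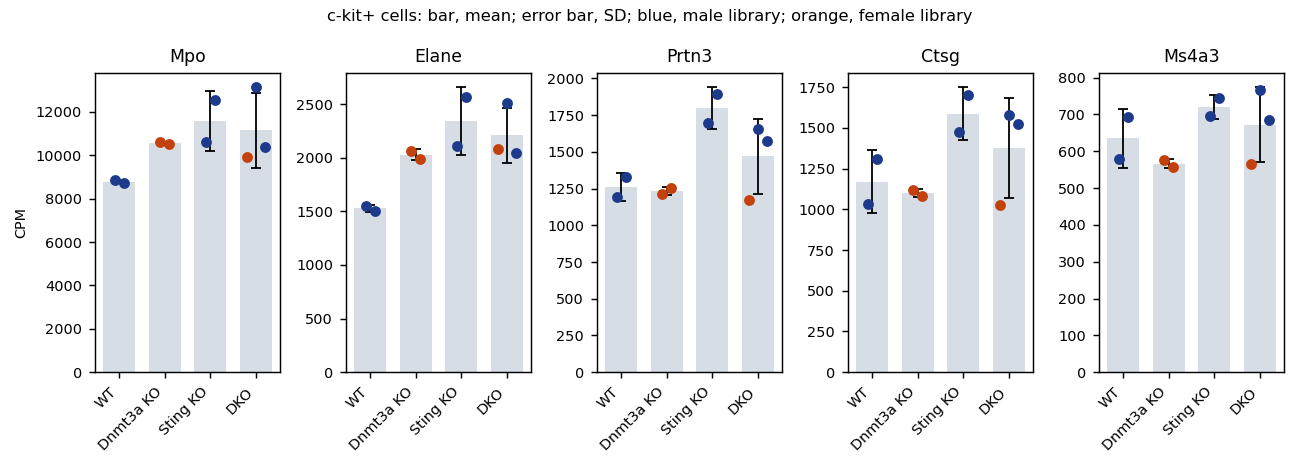
Level of each member in the 9 c-kit+ libraries, in CPM, with 1 point per library (blue male, orange female), bars for the mean and error bars for the SD of each genotype. For Mpo and Elane both WT points lie below all 7 knockout points, whereas for Ctsg and Ms4a3 the Dnmt3a KO points lie within or below the WT range.

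Other cell types moved in the same c-kit+ libraries. The 9 macrophage genes summed to 1500 and 1633 CPM in WT and 332 to 611 CPM in the knockouts, and 3, 5 and 8 of the 9 were called lower in Dnmt3a KO, Sting KO and DKO. The 12 late neutrophil granule genes summed to 6362 and 11170 CPM in WT and 12250 to 33723 CPM in the knockouts. Of those 12, Chil3 was called higher in each knockout, with log2 fold changes of 3.43, 2.62 and 3.97. The 10 eosinophil, basophil and mast cell genes summed to 4495 and 4865 CPM in WT and 1599 to 3491 CPM in the knockouts, and 3, 3 and 1 of them were called lower in Dnmt3a KO, Sting KO and DKO. The eosinophil granule gene Prg2 was among those called in Dnmt3a KO (-1.48) and Sting KO (-1.22), and the eotaxin receptor gene Ccr3 in Sting KO (-3.0) and DKO (-2.50). In Dnmt3a KO, the collagen gene Col1a2 was called lower (-1.97) and the NK cell receptor gene Ncr1 higher (1.64). None of the macrophage genes was at 0 in any c-kit+ library, and the part of these cells in the members' levels was not tested.

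The other granule genes, a list of 18 cargo proteins, processing enzymes and inhibitors, were read in the same comparisons. From WT LT-HSC to CMP/GMP, 5 of the 16 tested were called higher and 0 lower, against 8.74% of all genes called in either direction: the serine protease Prss57 (2.69), Nkg7 (2.53), the elastase inhibitor Serpinb1a (1.79), the chaperone calreticulin (Calr, 1.59) and the lysosomal enzyme Gusb (1.21). The median over the list was 1.69, and over all genes -0.09. From CMP/GMP to MEP, 8 of 16 were called lower and 0 higher (3.47% of all genes called), led by Prss57 (-4.46), Serpinb1a (-3.59), lysozyme (Lyz2, -2.77) and Nkg7 (-2.03), with a list median of -2.31 against -0.06 over all genes. In MEP against LT-HSC, 4 of 16 were lower (13.2% of all genes called): Lyz2 (-2.93), Cd63 (-2.04), Serpinb1a (-1.79) and Ctsc, the protease activator (-1.70), with a list median of -1.58 against -0.17.

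With Dnmt3a loss, no gene of this list was called in a sorted population, where edgeR called 0% of all genes. The list medians were -0.10 in LT-HSC, 0.13 in CMP/GMP and 0.15 in MEP, against 0.00, 0.01 and -0.03 over all genes. In c-kit+ cells, the lysosomal protease Ctsd was called lower in all 3 knockouts against WT (-0.58 in Dnmt3a KO, -0.52 in Sting KO and -0.56 in DKO), and haptoglobin (Hp, 0.73) and Igsf6 (0.60) were called higher in DKO. The remaining genes of the 17 tested were not called.

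Of 10 regulators, Irf8, which directs monocytic fate, rose from WT LT-HSC to CMP/GMP (log2 fold change 3.86) and was lower in MEP than in CMP/GMP (-5.91). Csf3r, the G-CSF receptor, was lower in MEP than in CMP/GMP (-3.26) and than in LT-HSC (-3.10). Spi1, which encodes PU.1, and Runx1 were lower in MEP than in LT-HSC (-2.19 and -1.19). No regulator was called for Dnmt3a loss in a sorted population, where edgeR called 0% of all genes. None was called in any c-kit+ comparison (0% to 1.26% of all genes). In c-kit+ DKO against WT, Cebpa (0.35, adjusted p = 0.0542 by edgeR) and Gfi1 (0.53, adjusted p = 0.068) were near the threshold. The list of regulators summed to 691 to 1706 CPM in CMP/GMP and 1994 to 2273 CPM in c-kit+ cells.

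Genes on either side of the members were read from the same table. Plppr3, 4708 bases from Prtn3 on its other side, was called lower in WT MEP than in CMP/GMP (-3.93, SE 0.68) and than in LT-HSC (-2.59, SE 0.63), as Prtn3 was. Plppr3 ran from 11.8 to 192 CPM in LT-HSC WT and from 226 to 380 CPM in CMP/GMP WT. Ptbp1, the next gene, was higher in both CMP/GMP (0.88, adjusted p = 0.0109) and MEP (0.76, adjusted p = 0.0208) than in LT-HSC. Cfd, which follows Elane after 2636 bases, was at most 0.918 CPM in every library. Lpo, the lactoperoxidase gene 2015 bases past Mpo, was 0 in all LT-HSC and MEP libraries and 2.70 to 8.44 CPM in c-kit+ cells. Beside Ctsg, the mast cell protease gene Mcpt8 was 11.1 to 133 CPM in CMP/GMP, and Gzme and Gzmd were at or near 0 everywhere. Beside Ms4a3, Ms4a2, which encodes an IgE receptor chain, was 46.6 to 155 CPM in CMP/GMP and 0 to 8.11 CPM in LT-HSC.

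Across the 32 libraries, log2 levels of Mpo and Ctsg had a Pearson r of 0.975, Mpo and Elane 0.928, and Prtn3 with Mpo 0.670 and with Ctsg 0.635. Within the 9 c-kit+ libraries the closest pairs were Prtn3 with Ctsg (0.974) and Mpo with Elane (0.963), and Elane with Ctsg had 0.648. Within the 8 CMP/GMP libraries every pair was at 0.812 or more. These values describe libraries that share populations and depth and were given no test. Among 10093 genes with a mean of 5 CPM or more, those most like the members' mean over the 32 libraries were Adgrg3 (r = 0.947), Hp (0.943), Atp8b4 (0.943), Clec12a (0.940), Ly6c2 (0.938), Anxa3 (0.934), Igsf6 (0.932), Dmkn (0.931), Slpi (0.925) and Cx3cr1 (0.923). Hp, Igsf6 and the protease inhibitor Slpi are also on the granule list. Over the 9 c-kit+ libraries alone, r was 0.866 for Dmkn, 0.764 for Hp, 0.710 for Adgrg3, 0.607 for Atp8b4, 0.512 for Slpi and 0.486 for Igsf6. It was 0.372 for Clec12a, 0.259 for Anxa3, 0.158 for Ly6c2 and -0.664 for Cx3cr1, so the likeness of several of these genes was far lower within c-kit+ cells.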

How the data were processed

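RNA of sorted mouse marrow cells was amplified as cDNA with a modified SMART-Seq2 method (per the labels' protocols). The deposited table holds raw read counts per gene symbol, per the file headers. The submitters' processing notes name Trim Galore 0.6.7, HISAT2, featureCounts 2.0.1, DESeq2 1.34.0 and mm10, with no role or order; no source used here states the counting settings or strand use. CPM, CPM per kb (merged exons of a GENCODE annotation of GRCm38) and all tests were computed here from the counts. Main tests used edgeR 4.0.16 in R 4.3.3: TMM scaling (factors 0.803 to 1.15 over 32 libraries), genes kept by a minimum count of 10 and total of 15, quasi-likelihood F-tests, Benjamini-Hochberg adjustment over all genes, and a call at an adjusted p under 0.05. Dnmt3a KO was tested against WT within each sorted population, the 4 genotypes of c-kit+ cells in 1 fit, the WT populations in 1 fit, and the difference of the Dnmt3a effect in a joint fit. DESeq2 1.42.0, limma 3.58.1 (voom with quality weights), other filters and scalings, a sex term, a replicate block and single left-out libraries were tried as alternatives. All fits but that of Dnmt3a KO against WT in LT-HSC were run on simulated counts with large, known changes in well-counted genes. Those counts held no outlying library and no changed gene near 0 reads. They therefore do not speak to LT-HSC WT 1 or to members near 0 CPM. Likeness was Pearson r of log2 CPM (TMM, prior count 2) with the mean of the centred members, over genes with a mean of 5 CPM or more; the 10 highest were named. Always named were the 5 members and the 2 nearest coding genes on each side where informative; of each list at most 4 called genes per comparison were named, or 5 where all were called. The members and all 12 lists were chosen with earlier results of these data known. The labels do not say that replicates came from separate mice, so p-values measure the spread between libraries, which may be technical. MEP Dnmt3a KO 3 and 4 and CMP/GMP WT 2 and 4 were closer to each other (chi-square per gene 25.2 and 84.7) than other pairs of their populations, but differed by more than sampling noise and were counted separately. The short-term HSC samples, and 8 table columns whose sample could not be settled, were not analysed here.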

Additional observations from a re-analysis of the deposited data

Results flagged for a closer look

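In each group of 4 sorted libraries, the highest and the lowest library were compared with the others for each member and for the members' sum, 30 checks in all, and 12 found a library far from the rest by Dixon's gap ratio. For normally distributed values, chance alone would give about 1 in 20 groups. The check used CPM without a log scale, where skewed levels can be flagged more often, and members of 1 library are not independent. LT-HSC WT 1 was set apart for Mpo (1378 CPM), Elane (599.7 CPM), Ctsg (397 CPM), Ms4a3 (142 CPM) and the sum of the 5 members (3511 CPM), but not for Prtn3. LT-HSC Dnmt3a KO 2 was set apart for Elane (46.5 CPM) and Ms4a3 (48.6 CPM), and LT-HSC Dnmt3a KO 3, in which Dnmt3a was within the WT range, for Ctsg (7.06 CPM). CMP/GMP WT 3 was set apart for Mpo (20863 CPM), Elane (5408 CPM), Ctsg (2997 CPM) and the sum (31815 CPM).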

How the results depend on the processing

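EdgeR's 2 calls of a member, Prtn3 in WT MEP against CMP/GMP and against LT-HSC, held in every alternative and with each library left out. Over all alternatives other than single left-out libraries, 80 of 109 counts of members called stayed the same, and of 545 member estimates 447 kept sign and side of the threshold, 55 newly passed it, 0 lost it and 43 changed sign. With 1 library left out, 125 of 133 counts stayed the same, and 628 of 665 member estimates, with 14 newly passing and 23 changing sign. The causes were not tested unless the alternative's own construction shows them.

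Counts of members called rose as follows. They are given without the share of all genes that the same alternative called, so a higher count does not set the members apart. DESeq2 called 2 in Sting KO and 1 in DKO against WT in c-kit+ cells, 2 in WT CMP/GMP against LT-HSC and 3 in MEP against CMP/GMP. Limma-voom with quality weights called 3 for Dnmt3a KO in MEP, 1 each in the c-kit+ Dnmt3a KO, Sting KO and DKO against WT, 4 in each of WT CMP/GMP against LT-HSC and MEP against CMP/GMP, and 2 for the difference of the Dnmt3a effect. With no filter on low counts the c-kit+ counts were 2, 4 and 2 against WT and 1 in each other comparison, and 2 in both WT comparisons with CMP/GMP. With only the 2 groups compared, 2 were called in each of the Dnmt3a KO and Sting KO comparisons. A sex term gave 1 in Sting KO against WT. Leaving out LT-HSC WT 1 and summing CMP/GMP WT 2 and 4, chosen after seeing the data, gave 5, 4 and 3 in the WT comparisons.

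Signs that changed were as follows, as log2 fold changes. Limma-voom gave 3.66 for Mpo, 2.98 for Elane and 2.69 for Ctsg for Dnmt3a KO in LT-HSC, -1.51 for Mpo, -1.98 for Elane, -0.42 for Prtn3, -2.07 for Ctsg and -5.74 for Ms4a3 in MEP, and 5.60, 2.39, 6.49 and 1.82 for Mpo, Elane, Ctsg and Ms4a3 in WT MEP against LT-HSC. The sex term gave 1.21 for Mpo in LT-HSC and -0.56, -0.76 and -2.65 for Mpo, Ctsg and Ms4a3 in MEP. In c-kit+ cells it gave 0.45, 0.53 and 0.22 for Prtn3, Ctsg and Ms4a3 in Dnmt3a KO, -0.064, -0.043 and -0.073 for Mpo, Prtn3 and Ctsg in DKO against Dnmt3a KO, 0.039 and 0.025 for Mpo and Ms4a3 in DKO against Sting KO, and -0.20 for the interaction of Ms4a3. Only the DKO group held both sexes there, so the c-kit+ sex term rests on the female DKO 1 against the male DKO 2 and DKO 3. Leaving out LT-HSC WT 1 and Dnmt3a KO 2 gave 4.33, 2.78, 4.46 and 1.35 for Mpo, Elane, Ctsg and Ms4a3 in LT-HSC. Leaving out LT-HSC WT 1 with CMP/GMP WT 2 and 4 summed gave 6.57, 7.27, 8.10 and 2.15 for the same genes in WT MEP against LT-HSC.

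With 1 library left out, the counts ran from 0 to 2 for Sting KO and 0 to 1 for DKO against WT in c-kit+ cells, 0 to 5 for WT CMP/GMP against LT-HSC, 1 to 4 for MEP against CMP/GMP and 1 to 3 for MEP against LT-HSC. The LT-HSC estimates ran from -3.0 to 5.17 for Mpo, -6.41 to 5.68 for Elane, -6.86 to 4.18 for Ctsg and -3.62 to 3.66 for Ms4a3, and those of MEP against LT-HSC from -1.25 to 6.56, -9.70 to 7.26, -2.55 to 8.09 and -3.88 to 2.13, each highest without LT-HSC WT 1. In c-kit+ cells, Dnmt3a KO ran from -0.13 to 0.056 for Prtn3 and -0.27 to 0.099 for Ctsg, DKO against WT from -0.012 to 0.27 for Ms4a3, DKO against Dnmt3a KO from -0.045 to 0.21 for Mpo, DKO against Sting KO from -0.22 to 0.076 for Mpo, -0.21 to 0.067 for Elane and -0.23 to 0.025 for Ms4a3, and the interaction from -0.30 to 0.076 for Ctsg and -0.073 to 0.22 for Ms4a3.

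Deviations from the group means were correlated between libraries. Between genotypes, same-numbered libraries had both signs, from -0.20 to 0.12. Between WT populations, same-numbered libraries had small positive correlations of up to 0.16, except CMP/GMP WT 4 with MEP WT 4 (-0.061). Different-numbered WT libraries ran from -0.13 to 0.061. The libraries were not treated as pairs in the main fits. In the sorted groups the numbers run with sex: 1 and 2 were male and 3 and 4 female, except CMP/GMP WT 4, which was male. With the replicate block, members called were 1 in Sting KO and 1 in DKO against WT in c-kit+ cells, 5 in WT CMP/GMP against LT-HSC and 3 in MEP against CMP/GMP. These counts too are given without the share of all genes called. The block gave 4.46, 3.58 and 2.26 for Mpo, Elane and Ctsg in LT-HSC, -0.45, -0.64 and -2.46 for Mpo, Ctsg and Ms4a3 in MEP, 0.016 and 0.00017 for Mpo and Elane in DKO against Sting KO, and 2.72 and 2.82 for Mpo and Ctsg in WT MEP against LT-HSC.

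Limits: groups hold 2 to 4 libraries. Members read at under 1 CPM in LT-HSC and MEP rest on few reads, and the size of their fold changes depends on the prior count.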
